A study of Mus musculus with 84 samples.

Results

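Sialomucins and leukocyte adhesion molecules of the vessel wall were described here as 10 genes: Emcn, Cd34, Podxl, Madcam1, Icam1, Icam2, Vcam1, Mcam, Cd93 and Selp. All 10 have a row in a table of 20308 genes measured in 84 single cells. The set was chosen by gene name, and Madcam1 was selected on its spread in these same cells, since it is among the most variable genes of the table. Its variability, and the detection and levels of all 10 genes, are therefore given as description with no test. The cells came from mouse embryos at E11.5 (E for embryonic day) and from the aorta-gonad-mesonephros (AGM), the part of the trunk around the dorsal aorta in which definitive blood stem cells first arise. They were sorted as CD31+CD144+CD41-CD45-, that is, for the endothelial surface proteins encoded by Pecam1 and Cdh5 and against the blood cell proteins encoded by Itga2b and Ptprc. Single cells were captured on a Fluidigm C1 chip for cells of 10 to 17 µm, amplified as full-length cDNA, and read in 67-base single-end reads at 24 libraries per lane. The series belongs to a study of arterial endothelial cells made from human pluripotent stem cells, and these mouse cells are a single untreated group with no strain, genotype, embryo or pool named. The 84 cells therefore count as 1 sample, and a difference between cells has no replicate error.

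Leukocytes leave the blood by holding on to glycoproteins of the endothelial surface. Sialomucins carry dense sugar chains on a long stalk: in lymph node vessels, correctly glycosylated CD34, podocalyxin and MAdCAM-1 present sugars that hold lymphocytes, whereas in most other endothelium the same stalks, with endomucin, form a negatively charged coat that keeps cells apart. ICAM-1, ICAM-2, VCAM-1 and the immunoglobulin domains of MAdCAM-1 bind leukocyte integrins, and P-selectin, stored in Weibel-Palade bodies, catches rolling cells. In adult vessels ICAM-1, VCAM-1 and MAdCAM-1 are induced by inflammatory signals through NF-kB, while ICAM-2, CD34 and endomucin are constitutive.

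The cells carried the transcripts of their gate. Cdh5 was detected in 82 of 84 cells and Pecam1 in 80, whereas Itga2b was detected in 7 and Ptprc in 0. Detection here and below means TPM 1 or more, where TPM, a transcript count per length scaled to a fixed total per cell, allows genes to be compared. Both Pecam1 and Cdh5 reached TPM 10 in 75 cells and 1 of them or both missed it in 9. Of 16 pan-endothelial genes a cell held a median of 12 at TPM 10, from 0 to 16. Transcripts of other cell types were also present: 34 cells held at least 3 of 11 mesenchyme markers at TPM 10, and 1 cell held all 9 megakaryocyte and platelet markers. The co-detection and Madcam1 results are given again below without the mesenchyme-marked cells.

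The promoters of 4 of the genes are shown because they span a gene detected in every cell, genes detected in part of them and one detected in none, and because 2 of them share a motif. Each run is the 250 bases before a start in RefSeq's annotation of GRCm38.p6, the assembly of mm10, on the plus strand, for Emcn a start within the span given below; Madcam1 lies at chr10:79664309-79664558, Icam1 at chr9:21015690-21015939, Emcn at chr3:137340828-137341077 and Selp at chr1:164115014-164115263. Capitals mark GGAAANTCC, letters like those bound by NF-kB, searched on both strands; the motif was chosen after the sequences were seen.
Madcam1: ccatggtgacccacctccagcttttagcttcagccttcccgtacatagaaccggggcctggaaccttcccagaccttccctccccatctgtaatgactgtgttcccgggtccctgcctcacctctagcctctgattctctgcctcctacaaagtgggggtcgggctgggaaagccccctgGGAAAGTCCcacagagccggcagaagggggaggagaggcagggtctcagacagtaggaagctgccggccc
Icam1: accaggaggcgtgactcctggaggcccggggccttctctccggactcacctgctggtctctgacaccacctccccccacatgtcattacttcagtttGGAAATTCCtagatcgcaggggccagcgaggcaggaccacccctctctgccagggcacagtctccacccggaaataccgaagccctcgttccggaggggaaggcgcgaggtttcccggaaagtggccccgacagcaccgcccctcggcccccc
Emcn: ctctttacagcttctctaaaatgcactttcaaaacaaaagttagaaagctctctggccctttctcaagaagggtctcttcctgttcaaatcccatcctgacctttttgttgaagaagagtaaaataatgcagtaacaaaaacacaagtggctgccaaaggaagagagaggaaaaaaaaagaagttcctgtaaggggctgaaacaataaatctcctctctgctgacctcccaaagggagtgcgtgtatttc
Selp: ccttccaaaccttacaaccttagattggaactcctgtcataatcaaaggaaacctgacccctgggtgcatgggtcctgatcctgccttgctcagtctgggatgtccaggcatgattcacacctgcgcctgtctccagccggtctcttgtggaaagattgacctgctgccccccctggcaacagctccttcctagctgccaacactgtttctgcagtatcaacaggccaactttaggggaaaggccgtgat
The motif stands 70 bases before the start of Madcam1 and 153 bases before that of Icam1. It is held by 350 of 32851 promoters of the same length, or 1.07%. RefSeq's promoter table held 6 of the 10 genes (also Cd34 and Mcam, with no such letters); Podxl, Icam2, Vcam1 and Cd93 had no entry. A match is a string of letters and not a measured binding site.

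In the AGM endothelium the set divided into genes present in nearly every cell, genes present in part of the cells, and Selp, which was not detected. Of the 10 genes, 7 were detected in at least 42 cells, against 34.6% of all genes of the table. Median levels of at least TPM 100 were reached by 4 of the 10 (Emcn, Cd93, Cd34 and Icam2), against 6.59% of all genes. Only Selp was detected in 0 cells, a state shared by 26% of the table. These are counts over genes chosen by name, which include standard endothelial genes. The plot of levels shows the 3 classes.

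**Figure D1:**
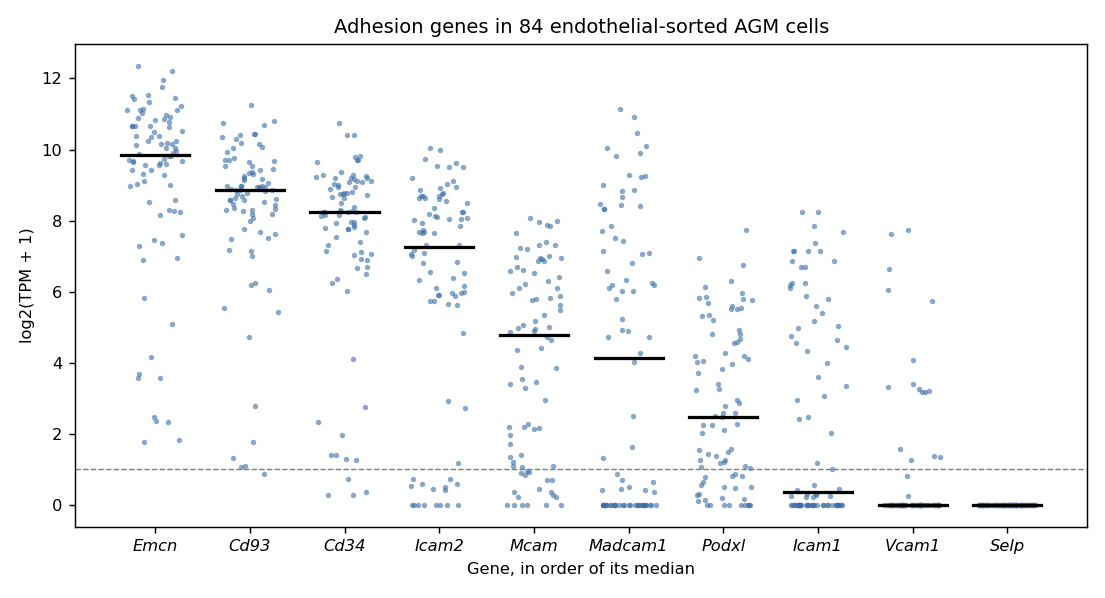
Each point is 1 of 84 cells, with the gene on the horizontal axis in order of its median and the level as log2(TPM + 1) on the vertical axis; black bars are medians and the dashed line is TPM 1. Emcn, Cd93 and Cd34 each form a high band, at TPM 10 or more in 79, 78 and 73 cells, with the remaining cells far below it. Icam2, Madcam1 and Icam1 have a high group and a group at or near 0, and Selp is at 0 in every cell.

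Among the sialomucins, Emcn was the most abundant and the most widespread. Emcn encodes endomucin, a marker of capillary and venous endothelium, and lies on chromosome 3 from 137341062 to 137431069. It was detected in 84 of 84 cells (exact Clopper-Pearson 95% interval 95.7% to 100%), where this and later intervals cover counting error over cells only. Its level ran from 2.38 to 5232 TPM with a median of 925 and quartiles of 355 and 1669. It reached TPM 1000 in 39 cells and TPM 100 in 73. Detection was complete but the level was not uniform. Against genes of like mean level its SD on the log2(TPM + 1) scale was 2.74 times the median, the highest ratio of the 12318 genes detected in at least 5 cells. That ratio depends on the spread of the genes of like mean. The SD itself was 2.58, and it was larger for Madcam1 (3.93), Icam2 (3.23), Icam1 (2.94), Mcam (2.70) and Cd34 (2.63). Egfl7, a pan-endothelial gene, ranked 10 by the same ratio, at 2.39. Part of the spread of Emcn came from 5 cells with Emcn between 2.38 and 4.54 TPM. Of these, 3 held at most 1 of the 16 pan-endothelial genes at TPM 10, and the other two held 8 and 10 along with Cd34 at 305 and 137 TPM and Cd93 at 204 and 71.8 TPM. In those 2 cells Cd34 lay within its quartiles, and Cd93 was present but under its lower quartile of 265 TPM.

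Cd34, a sialomucin of endothelium and of blood stem and progenitor cells, lies on chromosome 1 from 194938821 to 194961292. Transcripts were detected in 80 cells (95.2%, interval 88.3% to 98.7%) and reached TPM 100 in 68. Its level ran from 0.20 to 1724 TPM with a median of 300. The gene overlaps the non-coding RNA gene Gm16897, and Emcn overlaps Gm38650; neither has a row in the table, and whether their reads could be told apart is not known.

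Podxl, which encodes podocalyxin, the anti-adhesive sialomucin of the vessel lumen and of kidney podocytes, was widely detected but low. It lies on chromosome 6 from 31519493 to 31563937. Podxl was found in 60 cells (71.4%, interval 60.5% to 80.8%), yet its median was 4.58 TPM with quartiles of 0.75 and 25.1, and it reached TPM 100 in 3 cells with a highest value of 212. In 15 further cells it was above 0 but under TPM 1. The values filled the range between not detected and moderate with no gap, unlike those of Madcam1.

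Madcam1 was mostly either under TPM 1, which can be a missed transcript, or at TPM 10 or more. Its protein carries both immunoglobulin domains, which bind the integrin alpha4 beta7, and a mucin stalk, and in adults marks vessels of the gut and its lymphoid tissue; the gene lies on chromosome 10 from 79664559 to 79668542. Detection was in 46 cells (54.8%, interval 43.5% to 65.7%) at a median of 16.7 TPM over all cells, with a highest value of 2239. It was at 0 in 30 cells, between 0 and TPM 1 in 8, from TPM 1 to 10 in 3 (1.51, 2.09 and 4.67 TPM) and at TPM 10 or more in 43. Nearly every cell therefore fell into one of 2 classes. The highest values under the detection limit were 0.55, 0.61 and 0.82 TPM, and the lowest values above TPM 10 were 15.1 and 18.2.

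This separation was sharper than in genes of like detection. Of the 46 cells with Madcam1, 93.5% had it at TPM 10 or more, where the median of 1576 genes detected in 40 to 52 cells was 60.9%, and 99.5% of those genes had a lower share. Its median level in detected cells, 156 TPM, was above that of 99.9% of the same genes. Both values restate the spread for which Madcam1 was chosen. By SD for its mean it ranked 123 of 12318 genes, behind Emcn and Cd93 (rank 8) and ahead of Cd34 (197). Without that scaling to genes of like mean its SD, 3.93, was the largest of the set.

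The 5 cells with Madcam1 above TPM 1000 (2239, 1927, 1405, 1105 and 1055 TPM) were all endothelial by their markers, with 12 to 14 of 16 pan-endothelial genes at TPM 10. They were not alike in the other sialomucins: Cd34 ranged from 1.66 to 1365 TPM and Emcn from 522 to 3988. Icam2 was at 78.8 TPM or more in all 5, whereas Icam1 was at TPM 100 or more in 2 and under TPM 1 in 3. The cells with the highest 2 values also held 6 and 4 mesenchyme markers at TPM 10, and the other three held 0.

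The immunoglobulin-type receptors formed a series from Icam2, which was common, to Vcam1, which was rare. Icam2, a constitutive endothelial ligand of the leukocyte integrin LFA-1, lies on chromosome 11 from 106377656 to 106388139. Detected in 68 cells (81%, interval 70.9% to 88.7%), it ran from 0 to 1055 TPM with a median of 151, and reached TPM 100 in 48. Like Madcam1 it was mostly either under TPM 1 or at TPM 10 or more. Of detected cells 95.6% held it at TPM 10, against a median of 75% for genes detected in 62 to 74 cells. Only 3 cells had Icam2 from TPM 1 to 10.

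Mcam, which encodes CD146, an adhesion protein of endothelial junctions and pericytes, lies on chromosome 9 from 44134658 to 44142727. It was detected in 66 cells (78.6%, interval 68.3% to 86.8%), at a median of 26.6 TPM and a highest value of 270, and it reached TPM 100 in 19. Its share of detected cells at TPM 10, 75.8%, was close to the median of 73.5% for genes of like detection. Mcam was thus almost as widespread as Icam2 but lower, with Icam2 above Mcam in 67 cells and below it in 16.

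Icam1 and Vcam1 are the inducible members. Icam1, a second ligand of LFA-1 and of Mac-1, lies on chromosome 9 from 21015940 to 21028814. Its transcripts were detected in 39 cells (46.4%, interval 35.5% to 57.6%), and ran from 0 to 303 TPM with a median of 0.29, and reached TPM 10 in 31 and TPM 100 in 13. Icam1 transcripts were therefore present in close to as many of these cells as Madcam1, at lower levels.

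Vcam1, the ligand of the integrin alpha4 beta1, lies on chromosome 3 from 116110020 to 116129688. It was detected in 16 cells (19%, interval 11.3% to 29.1%), and in 10 of them it lay under TPM 10. It reached TPM 10 in 6 cells, at 210, 195, 98.2, 64.7, 52 and 15.8 TPM. Of those 6 cells 5 held between 5 and 10 mesenchyme markers at TPM 10; the cell with 52 TPM held 0 and had 14 pan-endothelial genes. The cell with the highest Vcam1 had 8 mesenchyme markers and 1 pan-endothelial gene, with Pecam1 at 0.64 TPM and Cdh5 at 3.13. Vcam1 can be expressed by mesenchyme as well as by endothelium, and which of the 2 the transcripts in these cells came from was not tested.

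Of the lectin-type genes, one was nearly universal and the other was not found. Cd93, a C-type lectin-like receptor that binds the matrix protein multimerin 2 on endothelium, lies on chromosome 2 from 148436651 to 148443535. All but 1 cell held it (83 cells, 98.8%), from 0.84 to 2433 TPM with a median of 463 and quartiles of 265 and 716. It reached TPM 100 in 72 cells, close to the 73 of Emcn, at a lower level: Emcn was above Cd93 in 66 cells and below it in 18.

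Selp, which encodes P-selectin, lies on chromosome 1 from 164115264 to 164150026, where it overlaps Gm16548. It was listed at 0 in all 84 cells, which allows a share of cells with a detected transcript of up to 4.30%. The cell with all 9 megakaryocyte and platelet markers, cells in which Selp is normally expressed, had Pf4 at 35696 TPM, Ppbp at 10388 TPM and Gp9 at 2425 TPM, with Selp at 0. That cell also held Emcn at 306, Madcam1 at 228, Cd93 at 182 and Icam1 at 116 TPM. Icam2 was at 0 in it.

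By median the order was Emcn, Cd93, Cd34, Icam2, Mcam, Madcam1, Podxl, Icam1, then Vcam1 and Selp at 0. The quartile ranges of every pair of neighbours in that order overlapped. Within single cells the fewest reversals were at Icam1 over Vcam1 (46 cells against 12, with 26 equal), Icam2 over Mcam and Emcn over Cd93. It held least for Mcam over Madcam1 (43 cells, against 36 with the reverse), Madcam1 over Podxl (44 against 34) and Podxl over Icam1 (44 against 33). Cd93 was above Cd34 in 57 cells and below it in 27, and Cd34 above Icam2 in 59 and below it in 25.

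A typical cell combined most of the set. The number of the 10 genes detected per cell ran from 1 to 9 with a median of 7 and quartiles of 6 and 8. At TPM 10 the median was 6 and at TPM 100 it was 4. Emcn, Cd34 and Cd93 were together at TPM 10 in 71 cells, and Icam2 joined them in 62. Of the integrin ligands Madcam1, Icam1 and Vcam1, 22 cells had none, 27 had exactly 1, 31 had exactly 2 and 4 had all 3. The cells with the fewest members were 1 cell with 1 gene and 2 cells with 3 genes. Of these, 2 held at most 1 pan-endothelial gene at TPM 10, and the third held 11.

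**Figure D2:**
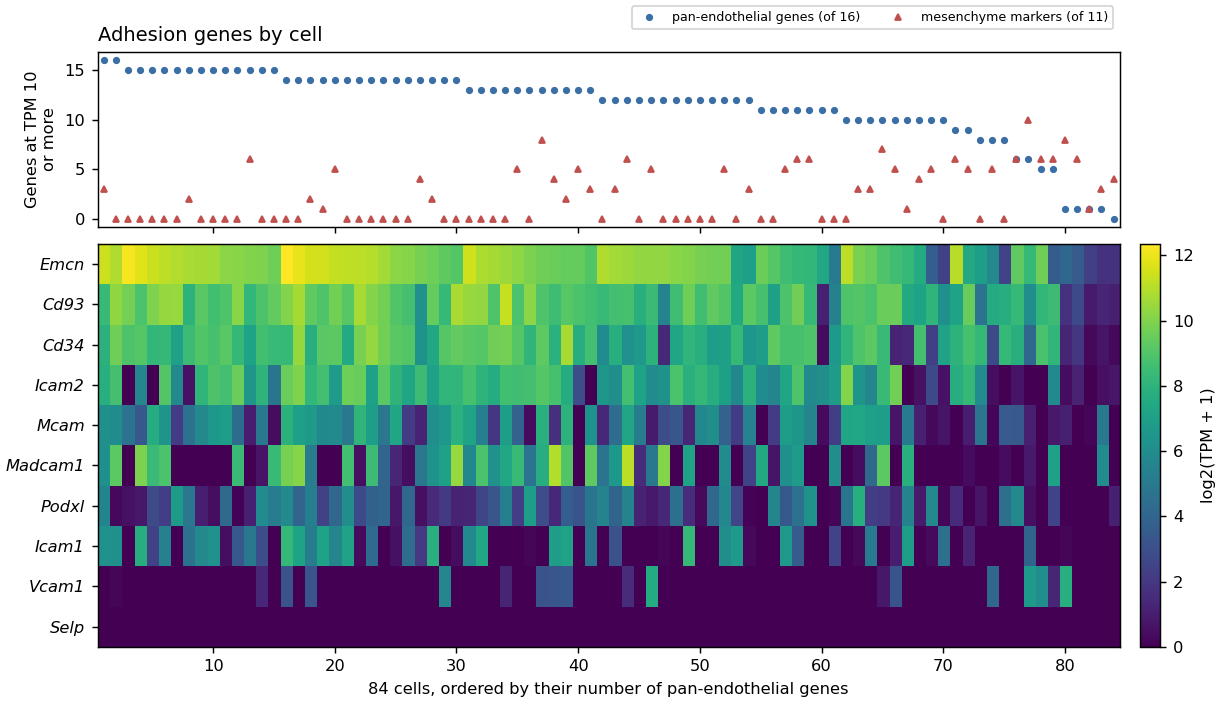
The upper panel gives for each of 84 cells the number of 16 pan-endothelial genes and of 11 mesenchyme markers at TPM 10 or more; the lower panel gives log2(TPM + 1) of the 10 adhesion genes in the same cells, ordered by their pan-endothelial count. Emcn, Cd93 and Cd34 are bright over most cells and dim at the right end. Madcam1 and Icam1 alternate between bright and dark over most of the row, and Podxl is graded from dark to intermediate.

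Over all 84 cells the genes tended to occur together, apart from Vcam1. At TPM 10, all 28 pairs that leave out Vcam1 and Selp were found together in more cells than independent detection gives, at ratios from 1.02 to 1.32 with a median of 1.08. Pairs of other genes were not counted, so whether this is particular to the set is not known. The highest ratios were those of Madcam1 with Icam1 (21 cells, where independence gives 15.9), Podxl with Mcam (25 against 19.6) and Icam1 with Mcam (23 against 18.5). A ratio is capped by the count of the more widespread gene, so pairs with such a gene cannot rank high. Cd34 with Cd93 (73 cells) and Icam1 with Cd93 (31) were at the most their counts allow, yet at a ratio of 1.08. Of the 8 pairs with Vcam1, 7 were found together less often, with a median ratio of 0.55, and Podxl and Vcam1 shared 0 cells where independence gives 2.36. The pairs with Vcam1 rest on 6 cells, 5 of them mesenchyme-marked. In the 50 cells that were not marked, 1 cell held Vcam1 at TPM 10, and 3 of the 28 pairs without it fell just below 1 (Podxl with Icam1 at 0.97, Icam2 with Mcam at 0.99 and Icam1 with Icam2 at 0.997).

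At the lower limit of TPM 1 the ratios were nearer 1. Their median over 36 pairs was 1.01, from 0.88 to 1.22, with 24 above 1, 4 below, all of them with Vcam1, and 8 fixed at 1 because Emcn was in every cell. The pairs of Cd93 with genes other than Emcn stood at 1.01, which rests on the 1 cell without Cd93. Within cells that had Pecam1 and Cdh5 at TPM 10, 28 pairs leave out Vcam1 and Selp. Of these 12 were above 1, 3 below and 13 fixed at 1. Without the mesenchyme-marked cells the Vcam1 pairs turned: 0 of 8 were below 1, their ratios ran from 1 to 1.44 (Madcam1), and their rho from 0.08 to 0.36, over 6 cells with Vcam1. Over all 84 cells Madcam1 and Icam1 again had the highest ratio: 26 cells had both where independence gives 21.4, and 25 cells had neither. Spearman's rho over the 84 cells had a median of 0.31 over the 36 pairs, from -0.09 to 0.58, and was positive in 31. It was highest for Cd93 with Icam2 (0.58) and with Emcn (0.58), and for Cd34 with Cd93 (0.55) and with Mcam (0.55). Cells of a TPM table share the scaling of their library, and these coefficients carry no test.

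**Figure D3:**
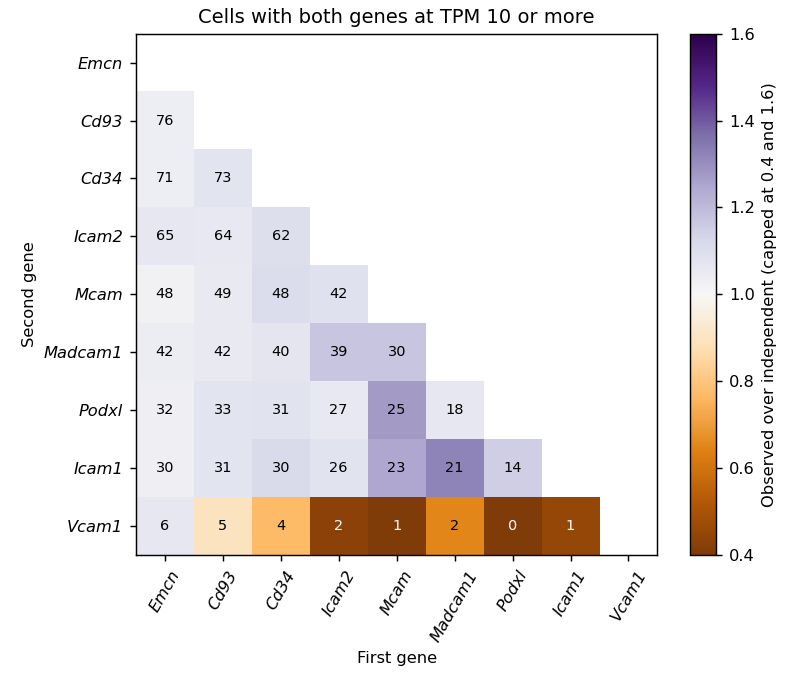
Each square is a pair of the 9 detected genes, the number in it is the count of the 84 cells with both at TPM 10 or more, and the colour is that count over the count independent detection gives. All squares are at or above 1 except 7 of the 8 in which Vcam1 takes part.

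Levels also moved with the number of endothelial genes in a cell. The rho of a gene with the number of pan-endothelial genes at TPM 10 was 0.71 for Emcn, 0.57 for Cd93, 0.45 for Cd34, 0.43 for Icam1, 0.42 for Icam2, 0.41 for Mcam, 0.30 for Madcam1, 0.24 for Podxl and -0.12 for Vcam1. With the number of mesenchyme markers it was 0.35 for Vcam1 and negative for the other eight. The rho with the number of genes detected per cell stayed between -0.06 and 0.30, with Icam1 at the upper end. The share of co-detection that follows from endothelial content was not tested.

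Cells with Madcam1 carried more Icam2, Icam1, Mcam, Emcn, Cd93 and Cd34. The 43 cells with Madcam1 at TPM 10 or more were set against the 38 with it under TPM 1, and a gene was called when its mean log2(TPM + 1) differed by at least 1 unit, a scale that understates the change of low genes. Of the 8 other detected members, 6 were called higher and 0 lower, where 4.20% of 12318 genes were called higher and 1.25% lower. The median difference was 1.44 over the 8 and 0.05 over all genes. There is 1 sample, so a call is a size and not a test.

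Over all cells Icam2 differed most, by 2.21 log2 units. It was detected in 39 of 43 cells with Madcam1 and in 26 of 38 without, at medians of 231 and 60.3 TPM, and the values of the 2 classes overlapped over nearly their whole range. Icam1 differed by 1.85, and was detected in 26 of 43 cells (60.5%) against 13 of 38 (34.2%). Mcam differed by 1.73 at medians of 39.9 and 3.57 TPM. These 3 belong to the immunoglobulin type, as does Vcam1, which differed by 0.05 (10 of 43 cells against 6 of 38).

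Among the sialomucins Emcn differed by 1.44, at medians of 1143 and 751 TPM. Cd34 differed by 1.15, although its medians, 302 and 285 TPM, were close: the difference lay in the low tail, with 40 of 43 cells at TPM 10 against 30 of 38. Podxl differed by 0.42. The lectin-type gene Cd93 differed by 1.44, at medians of 506 and 311 TPM.

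The 2 classes also differed in endothelial and mesenchymal content. Cells with Madcam1 held a median of 13 pan-endothelial genes at TPM 10 (range 1 to 16) and those without it 11 (0 to 15). Pecam1 differed by 0.95 and Cdh5 by 1.01 log2 units, and 5 of the 16 pan-endothelial genes were called higher, with a median of 0.82 over the 16. Of those, Esam, a junction protein that also takes part in leukocyte passage, differed by 2.61, more than any member. The summed level of the 11 mesenchyme markers ran from 0.14 to 1258 TPM with a median of 6.76 in cells with Madcam1 and from 0.24 to 3014 with a median of 31.1 in those without, and 16 and 17 cells held 3 or more of the markers. Detected genes per cell were close, at medians of 6995 and 6930.

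With only cells that had Pecam1 and Cdh5 at TPM 10 (41 and 32 cells), 5 of the 8 were called, against 3.52% of all genes: Icam2 differed by 1.81, Icam1 by 1.59, Mcam by 1.2, Emcn by 1.17 and Cd93 by 1.12, while Cd34 fell to 0.67. Without mesenchyme-marked cells 4 were called, against 4.1% of all genes, and the order changed: Icam1 led at 1.79, followed by Cd93 at 1.59, Emcn at 1.42 and Icam2 at 1.39, with Mcam at 0.61 and Cd34 at 0.50. With a pseudocount of 10 the called members numbered 4, against 0.447% of all genes, and Mcam at 0.99 and Cd34 at 0.83 were not called. The part of endothelial content in the remaining differences was not tested.

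**Figure D4:**
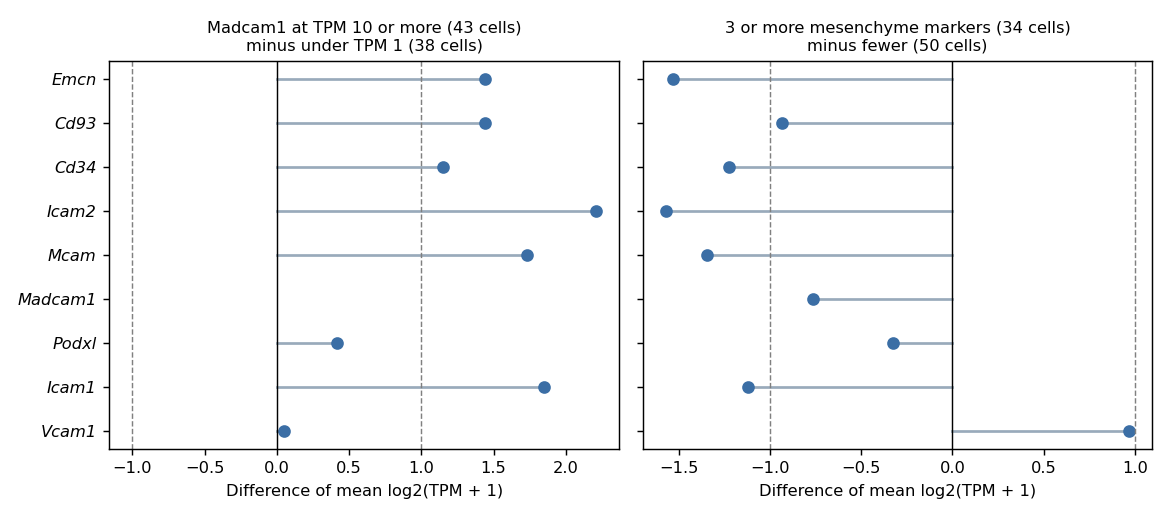
Points are differences of mean log2(TPM + 1), with no error because the cells are 1 sample; left, 43 cells with Madcam1 at TPM 10 or more minus 38 with it under TPM 1, and right, 34 cells with 3 or more mesenchyme markers minus 50 with fewer. Dashed lines mark 1 log2 unit. On the left Icam2 leads at 2.21 and Vcam1 sits at 0.05; on the right Vcam1 alone is above 0.

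Genes that work with these adhesion proteins were compared between the same 2 classes of cells. Over all genes 4.20% were called higher and 1.25% lower, and lists this short cannot tell 1 called gene from that share. Of 12 compared genes of inflammatory induction, Nfkb1, a subunit of NF-kB, was called higher by 1.26 and 0 were called lower, with a median of 0.33. The other NF-kB subunit genes of the list, Nfkb2 (0.64), Rela (0.33) and Relb (0.33), were not called. Of 9 partners of the cytoplasmic tails, Slc9a3r2, the scaffold NHERF2 that binds podocalyxin, was called higher by 1.53, and the median of the 9 was -0.40. Of 11 mucin glycosylation genes 0 were called in either direction, with a median of 0.04, and of 5 integrin genes 0 were called. Among 6 relatives and ligands of Cd93, Mmrn2 differed by 1.03. In the vessel type lists, 0 of 13 arterial genes, 1 of 7 venous genes (Aplnr, 1.51) and 0 of 5 lymphatic genes were called higher, and the lymphatic gene Pdpn was called lower by -1.63. Slc9a3r2, Nfkb2, Rela and Relb were named after their values were seen, as were Ppbp, Gp9, Nkx2-3, Chst2, Gcnt1, C1galt1 and C1galt1c1 elsewhere.

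In cells with mesenchyme markers 5 members were lower, and over all cells Vcam1 was the only one with a higher mean. The 34 cells with at least 3 of the 11 markers at TPM 10 (7 of them with exactly 3) were set against the other 50 (4 with exactly 2). Of the 9 detected members 5 were called lower and 0 higher, where 6.40% of 12318 genes were called lower and 3.95% higher. Icam2 differed by -1.57, Emcn by -1.53 (medians of 574 and 1250 TPM), Mcam by -1.35, Cd34 by -1.23 and Icam1 by -1.12. Cd93 differed by -0.94, Madcam1 by -0.77 and Podxl by -0.33. Madcam1 was nonetheless detected in 17 of 34 marked cells and in 29 of 50 others, so it was present in both kinds.

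Vcam1 went the other way, by 0.97, detected in 10 of 34 marked cells (29.4%) and 6 of 50 others (12%). At TPM 10 it was in 5 and 1 cells. The median over the 9 members was -1.12 and over all genes -0.05; 15 of 16 pan-endothelial genes were called lower in the same cells, with a median of -1.35, and their count at TPM 10 had medians of 10.5 and 14. The lower members thus moved with the pan-endothelial genes as a whole. The number of members called depends on the settings: 2 were called lower with a pseudocount of 10, where 1.06% of all genes were, 8 when markers had to reach TPM 100 (11 marked cells), where 18.5% were, and 3 within the cells that had Pecam1 and Cdh5 at TPM 10, where 5.31% were. In the last setting Podxl was at 0.15, above 0.

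The machinery that makes or reads these proteins was partly present. Sugar chains are started and extended by the enzymes of the mucin glycosylation list, of which 12 of 14 were detected in any cell and 6 in at least 42 cells. B4galt1 was found in 83 cells, Galnt1 in 80, and Galnt2 and St3gal4 in 61 each. Chst4 and Fut7, a sulfotransferase and a fucosyltransferase that modify the sugar chains of lymph node vessels, were detected in 0 cells each. Among the others of the list, Chst2 was in 54 cells, C1galt1c1 in 36, Gcnt1 in 28 and C1galt1 in 16. General mucin enzymes thus ranged from widespread to patchy, and Chst4 and Fut7 had no detected transcript. Co-detection of these enzymes with the stalks is not reported here.

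The tails of podocalyxin, CD34 and the ICAM proteins bind adaptor and cytoskeletal linker proteins. All 9 genes of that list were detected, where 26% of the table was in 0 cells. Of the 9, 7 were in at least 42 cells, against 34.6% of the table. Rdx was found in 84 cells, Msn in 83, Crk in 80 and Nf2 in 67; Slc9a3r1 was found in the fewest, 13. Of the Cd93 relatives and ligands, Mmrn2 was detected in 74 cells, Clec14a in 55, Dag1 in 49, Thbd in 42 and Cd248 in 8.

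Of the integrins that bind these receptors, both chains of alpha4 beta1 were widespread, whereas beta7 and the chains of LFA-1 were rare. Itgb1 was detected in 81 cells, Itga4 in 79, Itga9 in 67 and Itgae in 7, while Itgb7, the partner of alpha4 for MAdCAM-1, and Itgal and Itgb2, the chains of LFA-1, were detected in 1 cell each. Of the 17 other endothelial adhesion genes in the table, 11 were detected in any cell and 6 in 0, a state shared by 26% of the table. Cd164 was in 79 cells, F11r in 78, and Esam and Selplg in 66 each, Selplg at no more than 12.7 TPM. Sele, the E-selectin gene, and Glycam1, Icam4, Icam5 and Spn were detected in 0 cells each. Sele was thus, like Selp, without a detected transcript.

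Several components of the inflammatory response were detected. Of the 13 genes of that list 7 were in at least 42 cells, where 34.6% of the table is, led by Nfkbia in 75, Ltbr in 70, Il6st in 62 and Nfkb1 in 60. Tnfrsf1b was found in 2 cells. Nkx2-3, which encodes a homeobox factor needed for Madcam1 expression in adult gut and spleen vessels, was found in 7 cells.

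Leukocyte markers bear on these counts because several members are also made by blood cells. Ptprc, Cd52, Cd53 and Spi1 were at 0 cells each, Itgb2 was in 1 cell and Coro1a in 14. Rac2 was in 71, at no more than 15 TPM, Lcp1 in 66 and Laptm5 in 42. The summed level of the 11 markers ran from 1.41 to 676 TPM with a median of 117 in cells with Madcam1 and from 0 to 415 with a median of 60.1 in those without, and Lcp1, which encodes the actin-bundling protein plastin, differed by 2.25 log2 units between them. The part of these genes in the Madcam1 comparison was not tested.

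The genes whose levels ran most like each member over the 84 cells were sought among 11134 others detected in at least 10 cells, by Spearman's rho. The 95th percentile of rho over those genes lay between 0.19 and 0.28 for each member. The genes named are the 3 highest of 11134, so they lie above that percentile by selection. It is therefore no yardstick for them, and no rho expected of unrelated genes at that rank was worked out. Emcn ran most like Flt1 (0.69), Aplnr (0.65) and Vamp5 (0.65), and Cd93 like Vamp5 (0.74), Col4a1 (0.72) and Sparc (0.70). Mcam ran most like Sparc (0.78), a secreted matrix protein, then Col4a1 (0.61) and Esam (0.55). Cd34 ran most like Tmem255a (0.60), Ppic (0.60) and Vamp5 (0.59), and Icam2 like Gnai2 (0.59), Cd93 (0.58) and Sparc (0.58). Vamp5 and Sparc each stood among the 3 nearest genes of 3 members.

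Madcam1, Icam1, Podxl and Vcam1 had weaker neighbours. Madcam1 ran most like Myl6, Cdc42ep1 and Prnd, each at 0.49, and Icam1 like Pfkp (0.50), Rcan3 (0.47) and Ptpla (0.44). Podxl ran most like Tbkbp1 (0.44), Nme2 (0.43) and Tdrd7 (0.43). Vcam1 ran most like Peg3 (0.47), Prrx1 (0.44) and Zfp646 (0.43), of which Prrx1 is one of the mesenchyme markers.

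The members were also followed in cells with markers of a vessel type, as counts with no test. In the 41 cells with Gja4 or Dll4, genes of arterial endothelium, Madcam1 was detected in 28 and Icam2 in 39; in the 43 cells without them they were detected in 18 and 29. In the 36 cells with Prox1, a regulator of lymphatic fate, at TPM 10, Madcam1 was in 17, and in the other 48 it was in 29. Where Stab2, a scavenger receptor of sinusoids, was detected (31 cells), Madcam1 was in 21 and Icam1 in 19, against 25 and 20 of the other 53. Vcam1 was in 9 of 41, 7 of 36 and 7 of 31 of these cells, against 7 of 43, 9 of 48 and 9 of 53 of the others. For Gja4 or Dll4 and for Stab2 the members named first are those with the widest gaps. Mcam was closer, in 34 of 41 against 32 of 43 cells and in 27 of 31 against 39 of 53. Shares over all genes are not reported here for these splits. No vessel type held all or none of the cells with Madcam1.

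The labels give no batch, but the barcodes' second index splits the cells into 7 sets of 12. Emcn was detected in 12 of 12 cells of every set, Cd93 in 11 or 12 and Cd34 in 10 to 12. Madcam1 was in 6 to 8 cells of each set, so the cells in which it was not detected did not gather in any set. Its median nonetheless ran from 0.90 to 64.9 TPM. Icam2 was in 8 to 12, Mcam and Podxl in 6 to 11, Icam1 in 4 to 7 and Vcam1 in 1 to 5. Selp was in 0 of 12 in each set.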

How the data were processed

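Single-cell RNA sequencing of 84 sorted cells was analysed as deposited. The table's TPM values were made by the authors with RSEM 1.2.3, Bowtie 0.12.9 and CASAVA 1.8.2 among the tools and mm10 as build, per the submitters' processing notes; not given in the sources used here are the settings and the annotation. Since TPM carries no depth, the reads per cell are unknown and a 0 can be a missed transcript. Genes per cell at TPM 1 numbered 3334 to 10073, with a median of 6978. No 2 columns were identical. Of the symbols, 18956 matched RefSeq's annotation of GRCm38.p6.

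The members and the 21 gene lists were chosen with earlier results of these data known. All 10 members are named; of other lists, the 4 genes detected in the most cells and the one in the fewest; for likeness, the 3 highest rho. Any further gene was picked after seeing its values. For 1 listed gene no result is reported here. Detection was TPM 1, markers counted at TPM 10, and levels compared as log2(TPM + 1) over genes detected in at least 5 cells. SD for the mean was taken within 20 bins of mean level. The labels name no embryo, so there is 1 group and no test across cells. Doublets were not called. Python 3.11.15 with pandas 2.3.3 and scipy 1.17.1 was used, and the scripts were tested on simulated data. Alternatives changed the limits, pseudocount, scaling and cells.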

Additional observations from a re-analysis of the deposited data

How the results depend on the processing

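Of 185 values recomputed under alternatives, 137 stayed within the limit set for their kind of value and 48 moved beyond it. Those limits were unlike. A median stayed if it lay within the quartiles over all cells, and a share if it lay within its interval. A fall from 6 to 4 called members counted as unmoved, while a co-detection ratio moved on almost any change. The totals are therefore no measure of stability. Among the 185 were 21 summary values, of which 7 moved. Shares, levels, counts and ratios cannot be negative, so a change of sign was possible only for differences. There 3 values changed sign, none of them a called difference. Vcam1 in the Madcam1 comparison went from 0.05 to -0.06 with a pseudocount of 10. The median of all genes there went from 0.05 to -0.02 without mesenchyme-marked cells. Podxl in mesenchyme-marked cells went from -0.33 to 0.15 in cells with Pecam1 and Cdh5 at TPM 10. The median number of members per cell was 6 at TPM 10. The median ratio of co-detection was 1.06 at TPM 10, 1.02 without mesenchyme-marked cells, and 1 in cells with Pecam1 and Cdh5 at TPM 10, an alternative chosen after seeing the data in which 15 of 36 ratios are fixed at 1 because Emcn and Cd93 are in every cell. Members called lower in mesenchyme-marked cells numbered 2 with a pseudocount of 10 (1.06% of all genes), 8 with markers at TPM 100 (18.5%), and 3 in cells with Pecam1 and Cdh5 at TPM 10 (5.31%), also chosen after seeing the data. The cause was not tested, beyond the smaller number of cells that some alternatives leave. No paired analysis was possible because the cells form 1 group with no replicate numbers. The unknown depth limits every statement that a transcript was not detected.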
